A study of Mus musculus with 18 samples.

Results

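Sorted mammary tumor cells that stained low for CD29 and high for CD24 (CD29L CD24H) were compared with normal mammary luminal cells from the corresponding gate (CD29P CD24H). The comparison rests on 5 arrays of the 18 in the series, chosen by their sample titles: 3 of tumor cells and 2 of normal cells. RNA of each sorted population was amplified by a 2-cycle T7 method and hybridised to 1-colour Affymetrix mouse arrays. Itgb1 encodes CD29, an integrin chain that binds matrix, and Cd24a encodes CD24, a small surface glycoprotein. The tumor arrays came from mouse tumors 1, 2 and 7, of which the first 2 are titled as transplantation generation 1 while the title of tumor 7 names no generation. The normal arrays came from preparations 1 and 2 of mammary epithelial cells, sorted as CD29 positive (P) and CD24 high, so the CD29 gate carries a different name in the 2 groups. The labels give no strain, genotype, age or treatment; the study is known to have used transplanted mouse mammary tumors that lack p53. They do not say whether the normal preparations came from separate animals, so the p-values refer to the spread of these samples alone, which may be technical. Each array is a bulk measurement, in which fewer cells of a type and less RNA per cell cannot be told apart.

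The mammary duct has an inner luminal and an outer basal layer. Luminal cells carry the keratins Krt8, Krt18 and Krt19 and fall into hormone-sensing cells, which express the estrogen and progesterone receptors, and secretory progenitors, which give rise to the milk-producing alveoli. Hormone-sensing cells respond to estrogen and progesterone and relay the signal to their neighbours through secreted factors such as Wnt4. Basal cells express Krt5, Krt14 and Trp63 and contract to eject milk. In the normal gland a gate on high CD24 with low or intermediate CD29 collects mostly luminal cells.

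Values below are log2(signal + 32), where signal is the deposited intensity of a probe set; a level near 5 on this scale is a signal near 0. Each gene is represented by its brightest probe set, and levels are not compared between genes. The 2 normal arrays correlated at 0.967 over all probe sets of the table, the 3 tumor arrays at 0.895 to 0.921 with each other, and tumor with normal arrays at 0.870 to 0.897. The median SD of a gene was 0.502 among the tumors and 0.239 between the normal arrays. The array medians lay between 95.5 and 104.2 signal units in the tumors and were 71.6 and 79.3 in the normal cells. The 3′/5′ signal ratio of the actin control, which rises where amplified RNA is short, was 55.9, 49.6 and 58.7 in tumors 1, 2 and 7 and 24.7 and 6.33 in preparations 1 and 2. This ratio moved with the group, and its part in the differences below was not tested apart from a fit with the ratio as a covariate. In that fit 0 of 10916 genes passed in limma (646 at an unadjusted p under 0.05). Every tumor ratio lay above both normal ones, so a fit on 5 arrays can hardly part the ratio from the group. No conclusion is drawn from its count.

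The sort markers and the luminal keratin Krt8 were compared first. Cd24a stood at 15.20, 15.60 and 15.56 in tumors 1, 2 and 7 and at 15.06 and 15.29 in the normal preparations. The difference of 0.27 ± 0.27 (SE) did not pass the threshold of 0.05 (adjusted p = 0.569, limma with Benjamini-Hochberg adjustment). Itgb1 stood at 9.91, 10.27 and 13.01 in the tumors and at 10.27 and 9.52 in the normal cells, so that tumor 7 alone was high. The difference was 1.17 ± 0.86 (adjusted p = 0.443), and 4 of 6 probe sets had this sign (−0.29 to 1.72). The tumor CD29H CD24H arrays ranged from 9.02 to 12.58, so Itgb1 RNA overlapped between the low and high CD29 gates of the tumors. Epcam, a surface protein of epithelial cells, lay between 13.86 and 14.44 on the 5 arrays (difference 0.00 ± 0.31). Krt8 was at 13.36 in tumor 1, 11.31 in tumor 2 and 15.56 in tumor 7, against 15.46 and 15.49 in the normal cells. By Krt8, therefore, tumor 7 sat at the level of normal luminal cells and the other tumors below it, and the difference of −2.06 ± 0.99 did not pass (adjusted p = 0.255).

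Of 10916 genes tested, 600 passed (5.5%), 300 higher in the tumor cells (2.75%) and 300 lower (2.75%). All 3 tumor arrays lay above both normal arrays for 23.2% of all genes and below both for 21.1%, and every gene that passed was among these. The median difference over all genes was 0.05. The genes that were lower included Krt19, the estrogen and progesterone receptors, both measured fibrinogen chains, class II antigen presentation genes and the immunoglobulin heavy chain Ighm. Those that were higher included collagens and other matrix genes, macrophage genes, genes of the response to low oxygen, Ddit4, Fzd7, Cdk6 and Ccnd2. Higher and lower are relative to normal luminal cells. Some genes that rose were as bright or brighter in normal cells of the basal gate (CD29H CD24P), as given below. The split depends on the scaling: with each array shifted to a common median, the median of all genes moved from 0.05 to −0.21, and 230 genes passed as higher and 509 as lower, so that 31.1% of the genes that passed were higher instead of 50%. The normal group has 2 arrays, and the calls rest on both: without preparation 1, 0 genes passed (1161 at an unadjusted p under 0.05), and without preparation 2, 4 passed, all lower. Without tumor 1, 336 genes passed, without tumor 2, 524, and without tumor 7, 1141, of which 583 were among the 600. Of these 1141, 619 were higher and 522 lower, against 300 each with all tumors. The list counts given below without tumor 7 stand beside that general gain in calls.

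**Figure D1:**
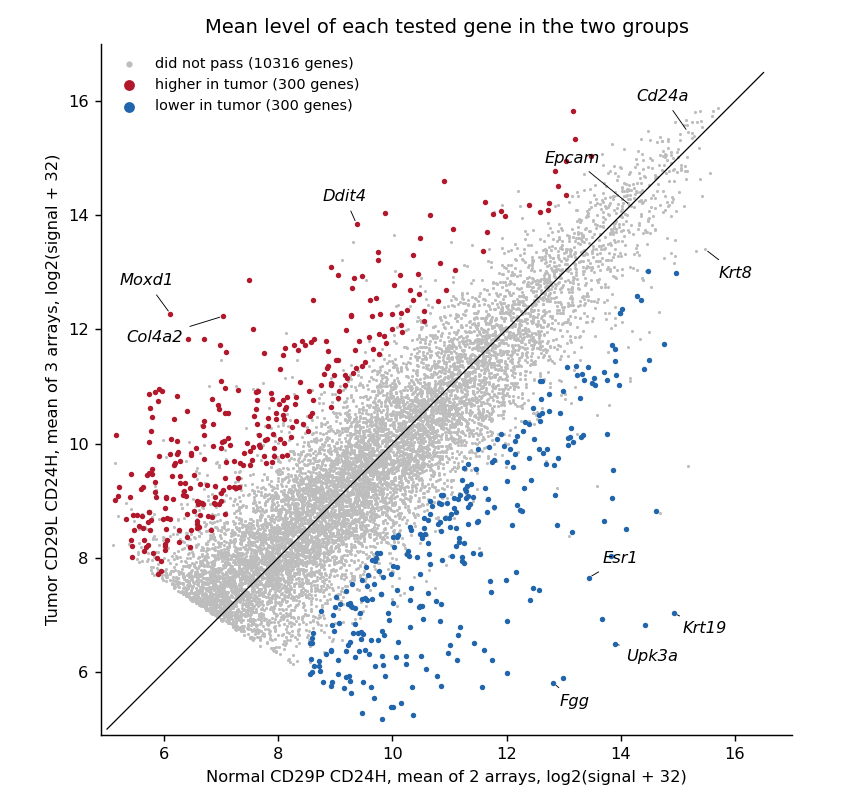
Mean level of each of the 10916 tested genes on the 2 normal CD29P CD24H arrays (x axis) and the 3 tumor CD29L CD24H arrays (y axis), both as log2(signal + 32). Points are genes, the line marks equal levels, red points are the 300 genes that passed as higher and blue points the 300 that passed as lower; Cd24a and Epcam lie near the line, while Krt19, Upk3a, Fgg and Esr1 lie far below it.

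Luminal identity was split. Krt19 fell to 6.23, 5.44 and 9.42 in tumors 1, 2 and 7 from 14.80 and 15.07 in the normal preparations, a difference of −7.90 ± 1.02 (adjusted p = 0.00726), or 240-fold on the offset scale. All 3 tumors were far below both normal arrays, with tumor 7 the highest of them. Krt7, another keratin of simple epithelia, fell by 3.15 ± 0.70 (adjusted p = 0.0408) and lay between 8.23 and 10.68 in the tumors. Krt18 was at 12.87, 12.98 and 14.00 against 14.82 and 15.06, a difference of −1.66 ± 0.40 that did not pass (adjusted p = 0.0535). Ehf, an ETS transcription factor of epithelial cells, went the other way: 12.51, 12.58 and 11.88 in the tumors against 10.73 and 10.37 in the normal cells, higher by 1.77 ± 0.40 (adjusted p = 0.0426). All 12 luminal keratin and epithelial genes were tested. Of these 2 were lower and 1 was higher, beside 2.75% of all genes in each direction. The other 9 did not pass, and the median difference was −0.95. Muc1 varied most by tumor, at 6.59, 5.19 and 10.57 against 9.66 and 10.46. Prom1, a surface marker found on part of the luminal layer, differed by 0.25 ± 0.41. Without tumor 7, 5 luminal genes passed as lower, beside 522 of all 10916 genes in that fit. The call of Krt7 ended without tumor 1 and with quantile normalization, and that of Ehf ended without tumor 1, without tumor 2 and with the median shift.

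Most hormone-sensing genes tested were lower in the tumor cells. Of 9 on the array 7 were above the filter on dim genes, and 6 of these passed, all lower, with a median difference of −3.94 beside 0.05 over all genes; 2.75% of all genes passed as lower. Esr1, the estrogen receptor, stood at 8.70, 7.69 and 6.57 in tumors 1, 2 and 7 and at 13.69 and 13.18 in the normal cells, a fall of 55.2-fold (−5.79 ± 0.61, adjusted p = 0.00413). All 3 tumors lay far below the normal arrays, and the lowest was tumor 7, whose Krt8 was the highest. Pgr, the progesterone receptor, stood at 9.55, 10.84 and 6.77 against 14.00 and 13.67 (−4.78 ± 1.01, adjusted p = 0.0349).

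The other 4 that fell are downstream and partner genes of the receptors. Cited1, a coactivator of the estrogen receptor, was at 5.14, 5.26 and 5.32, near 0 signal in each tumor, against 9.57 and 11.13 (−5.11 ± 0.52, adjusted p = 0.00343). Wnt4, the secreted factor that relays the progesterone signal, was at 7.70, 5.68 and 7.29 against 11.04 and 10.61 (−3.94 ± 0.61, adjusted p = 0.0129). Both groups were far apart for each of these genes. The transcription factor Gata3, needed for luminal differentiation, stood at 7.35, 5.99 and 8.10 against 10.21 and 10.73 (−3.33 ± 0.62, adjusted p = 0.0233). Foxa1, which opens chromatin for the estrogen receptor, was at 11.99, 12.00 and 11.20 against 13.90 and 13.79 (−2.11 ± 0.39, adjusted p = 0.0223), the smallest fall of the 6, with a level in the tumors still well above the dim end of the scale. Tbx3 was the member that did not pass, at 10.45 and 10.51 in tumors 1 and 2, within the range of the normal cells (10.22 and 10.64), and at 6.89 in tumor 7. The calls of Pgr and Gata3 ended without tumor 1, which left 4. Of the 3 Esr1 probe sets 2 were lower in the tumors, and the other differed by 0.21.

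**Figure D2:**
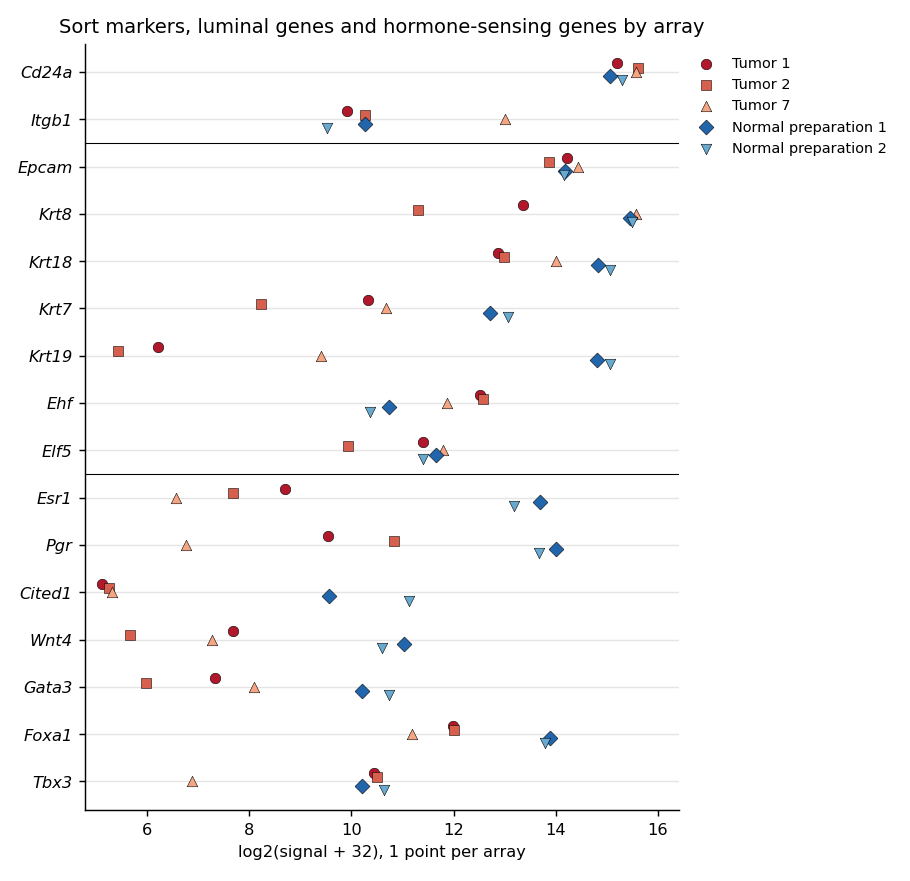
Level of each gene on each of the 5 arrays as log2(signal + 32), 1 point per array, with the sort markers in the top block, epithelial and luminal genes in the middle and hormone-sensing genes at the bottom. Tumor 7 sits with the normal preparations for Krt8 and apart from them for Krt19, Esr1, Pgr and Cited1.

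Other genes with the largest falls included a uroplakin, both measured fibrinogen chains and a protease inhibitor chain. Upk3a, a uroplakin of apical membranes, stood at 7.50, 6.55 and 5.44 in the tumors against 14.02 and 13.77 (−7.40 ± 0.60, adjusted p = 0.00174). Fgg, the fibrinogen gamma chain, was at 6.03, 5.29 and 6.11 against 13.25 and 12.39 (−7.01 ± 0.46, adjusted p = 0.00139). Fgb, the beta chain, was at 8.23, 5.12 and 5.27 against 11.60 and 11.90 (−5.54 ± 0.87), so that tumor 1 kept the most of it. Itih2, a heavy chain of the inter-alpha-trypsin inhibitor, fell by 6.01 ± 0.42 and the secreted peroxidase Gpx3 by 5.80 ± 0.80. Gpx3 was least reduced in tumor 2 (9.64) and Fam25c in tumor 1 (11.11 against 14.61 and 14.62). The transcription factor Tox2 was at 7.11, 8.54 and 9.87 against 14.13 and 14.04. Tlcd4, Rasef and Smim38 differed by −7.10 ± 0.53, −5.22 ± 1.05 and −5.14 ± 0.56. The call of Rasef ended without tumor 1 and without tumor 2; the other 9 genes named here passed without each tumor in turn.

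Milk and secretory genes had no common direction. Of 20 on the array 17 were tested and 2 passed, both lower, beside 2.75% of all genes, with a median of −1.26. Aldh1a3, an aldehyde dehydrogenase of luminal progenitors, stood at 11.59, 11.37 and 10.65 against 14.05 and 13.77 (−2.71 ± 0.40, adjusted p = 0.0107). The membrane mucin Muc15 fell by 3.05 ± 0.54 (adjusted p = 0.0202), a call that ended without tumor 1. Elf5, the transcription factor of the alveolar lineage, was at 11.40, 9.93 and 11.79 against 11.65 and 11.40 and differed by −0.48 ± 0.57. The receptor Kit was above both normal arrays in each tumor (1.62 ± 0.49) without passing (adjusted p = 0.0953).

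The caseins differed between the tumors by more than between tumor and normal. Csn3, kappa casein, was at 15.05 in tumor 7, as bright as in the normal cells (15.21 and 15.15), and at 7.90 and 5.85 in tumors 1 and 2. Csn2, beta casein, was also brightest in tumor 7 (13.81), with 9.70 and 6.68 in tumors 1 and 2 and 5.30 and 6.68 in the normal cells. Neither passed (adjusted p = 0.173 and 0.189 in limma). Without tumor 7, 8 members of the list passed as lower, beside 522 of all 10916 genes in that fit. Of the 11 secreted acute phase genes tested 0 passed (5 at an unadjusted p under 0.05 in limma), with 5 positive and 6 negative differences. Lcn2, an iron-trapping protein, was at 11.59, 10.13 and 13.76 against 14.21 and 14.46, and lactoferrin, Ltf, at 9.86, 6.51 and 11.43 against 13.32 and 13.85, so both were below the normal arrays in every tumor. The protease inhibitor Slpi was above them in every tumor, by 2.23 ± 0.54 (adjusted p = 0.0528). The largest rise in the list was that of Saa3, 3.33 (adjusted p = 0.0842 in limma).

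Antigen presentation and interferon-inducible genes were lower where they changed. All 5 tested class II genes had negative differences with a median of −1.66, and 2 passed as lower, beside 2.75% of all genes. H2-Aa, a class II alpha chain, stood at 9.90, 10.72 and 9.71 against 13.05 and 13.18 (−3.00 ± 0.43, adjusted p = 0.00926); with the mean of its probe sets in place of the brightest it differed by −1.68 and did not pass. H2-Eb1, a beta chain, fell by 1.996 ± 0.46 (adjusted p = 0.0448), a call that ended without tumor 1, without tumor 2 and with quantile normalization. The invariant chain Cd74 was at 8.62, 9.11 and 8.75 against 9.29 and 11.30 and did not pass. Of 15 interferon response genes 2 passed, both lower, against the same share of all genes. The guanylate binding protein Gbp2 was at 9.23, 8.72 and 8.53 against 12.42 and 12.12 (−3.44 ± 0.41, adjusted p = 0.00596), while Ifit1 fell by 2.26 ± 0.48 (adjusted p = 0.0356), a call that ended without tumor 2. Ido1, an interferon-inducible enzyme that degrades tryptophan, stood at 6.54, 5.34 and 5.32 against 11.57 and 11.58 (−5.84 ± 0.49). AW112010 fell from 13.74 and 13.61 to between 6.50 and 7.34. The rest of the interferon list ranged from −1.36 to 1.49.

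Antibody transcripts were prominent in the normal luminal arrays. Ighm, the heavy chain of IgM, was at 14.19 and 14.66 in the normal cells and at 5.34, 9.70 and 5.41 in the tumors (−7.60 ± 1.18, adjusted p = 0.013). Jchain, which joins secreted IgM and IgA, was at 12.44 and 13.27 against 8.67, 10.30 and 8.31 (−3.76 ± 0.63, adjusted p = 0.0164 in limma). The call of Jchain ended without tumor 1. Of the 13 lymphocyte markers on the array 5 were tested and these 2 fell, beside 2.75% of all genes. Igha went the other way, at 9.87, 10.09 and 9.25 in the tumors against 5.54 and 8.63, and did not pass. The summed signal of the 13 markers was 25146 and 37594 in the normal cells and 1873 to 5513 in the tumors, and Ighm and Jchain made up most of it in the normal cells. The T-cell chain Cd3e stayed at or below 41 signal units on all 5 arrays and the B-cell chain Cd79b at or below 102. Cd3d, Cd3g, Cd4 and Cd2 stayed at or below 47.9 units. Cd8a and Ms4a1 were brightest in preparation 2. Cd8a stood at 141, 131 and 233 units in the tumors against 108 and 553. Ms4a1 was at most at 129 units in the tumors and at 22.6 and 199 in the normal cells. Cd79a went the other way, at 87.7 to 109 units in the tumors against 33.1 and 61.7. Ptprc, the leukocyte antigen CD45, stood at 8.47, 10.90 and 9.15 in the tumors and at 9.57 and 9.24 in the normal cells. Of the 11 Ighm probe sets 7 were lower in the tumors. Whether lymphoid RNA in the normal gate bears on the class II and interferon differences was not tested.

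A part of the extracellular matrix genes rose. Col1a1, a chain of type I collagen, stood at 11.06, 13.74 and 10.71 in the tumors and at 5.39 and 7.44 in the normal cells (5.42 ± 0.95, adjusted p = 0.0198). Col5a2 was at 13.14, 13.90 and 11.57 against 6.69 and 8.27 (5.39 ± 0.74, adjusted p = 0.00846). The basement membrane chain Col4a2 was at 12.47, 12.53 and 11.70, against 6.96 and 7.11 (5.20 ± 0.42, adjusted p = 0.00174). No tumor array came near a normal one for these chains. Vcan, the proteoglycan versican, was at 10.33, 10.46 and 10.63 against 5.19 and 6.37 (4.70 ± 0.46, adjusted p = 0.00321). Sparc, a collagen-binding matrix protein, was higher by 5.12 ± 0.82, the collagen-binding receptor Antxr1 by 4.74 ± 0.63 and the crosslinking enzyme Lox by 4.60 ± 0.85. Fn1, fibronectin, was at 12.47, 13.72 and 12.51 against 9.19 and 9.47 (3.57 ± 0.48, adjusted p = 0.00844). The calls of Sparc and Lox ended without tumor 1. In normal cells of the basal gate (CD29H CD24P), Vcan stood at 13.14 to 13.20 and Antxr1 at 12.98 to 13.25. These levels, like those of Col4a2 and Sparc there, were above every tumor array here. Col5a2 (13.05 to 13.31) lay within the range of the tumors, and Col1a1 (5.78 to 6.21), Lox (6.63 to 6.68) and Fn1 (9.04 to 9.21) lay below it.

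Counts by list were as follows. Of 13 fibroblast and collagen genes 5 rose, beside 2.75% of all genes (Col1a1, Fstl1, Col5a1, Mmp2 and Thy1), with a median of 2.77, and 11 had all tumor arrays above both normal ones, beside 23.2% of all genes. For decorin, Dcn, all tumors were below the normal cells, at 10.86, 12.32 and 9.17 in the tumors against 13.05 and 13.003. The abundant chains Col3a1 (4.21 ± 1.02, adjusted p = 0.0532) and Col1a2 (4.10 ± 1.01, adjusted p = 0.0544) did not pass. Of 12 mesenchymal transition genes on the array 7 were tested and 3 rose: Sparc, Fn1 and the transcription factor Twist1, the last at 10.12, 8.30 and 9.28 against 5.20 and 5.22 (4.02 ± 0.56). Vimentin, Vim, was above the normal arrays in every tumor (2.10 ± 0.55) without passing (adjusted p = 0.0653). Among 12 basement membrane genes 3 rose, Col4a2, Col4a1 (2.82 ± 0.61) and the laminin chain Lamc1 (2.03 ± 0.43), while the epithelial integrin chain Itgb4 differed by −0.33. Without tumor 1 the fibroblast count was 1 and the basement membrane count 1; without tumor 2 they were 3 and 2. Without tumor 7 they were 9 and 4, and the mesenchymal count was 5, beside 619 higher of all 10916 genes in that fit. With the mean of probe sets the fibroblast count was 3, and Col5a1 differed by 2.37 in place of 3.64; its call ended with quantile normalization too.

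The summed fibroblast and macrophage markers and Fabp4 were brighter on the tumor arrays, the summed lymphocyte markers were dimmer, and the endothelial and erythroid sums overlapped. The summed signal of the 13 fibroblast markers was 37927, 109941 and 15034 in tumors 1, 2 and 7 and 9471 and 13445 in the normal cells, where Dcn alone held 8428 and 8177 units. That of the 14 macrophage markers was 10226, 58867 and 9219 against 2722 and 4115. The 10 endothelial markers summed to 1223 to 2506 in the tumors and to 1063 and 1751 in the normal cells, where Flt1 alone held 458 and 922 units. Of the 4 tested 0 passed (1 at an unadjusted p under 0.05). Cdh5, Esam, Emcn, Cldn5 and Pecam1 were brighter in every tumor than in both normal preparations, while Flt1, Eng, Egfl7, Tek and Tie1 overlapped. Cdh5 was at 95.7, 312 and 129 units in tumors 1, 2 and 7 against 25.1 and 34.6. Pecam1 was at most at 25.2 units on all arrays. Of the erythroid markers, Hba-a1 stayed at or below 62 units and Alas2, the 1 tested, did not pass. Of the 4 adipocyte markers Adipoq stayed at most at 14.1 units, and Fabp4, which macrophages and endothelial cells also express, was higher by 4.27 ± 0.47 (adjusted p = 0.00473). The part of stromal and myeloid RNA in the matrix differences was not tested.

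Some macrophage genes rose too. Of 14 on the array 11 were tested, 4 rose, beside 2.75% of all genes, and all 11 differences were positive, with a median of 2.26. Csf1r, the receptor for the macrophage growth factor, stood at 11.58, 14.50 and 11.47 against 8.31 and 8.91 (3.90 ± 0.86, adjusted p = 0.0401). C1qb, a chain of complement C1q, was at 9.77, 12.55 and 10.40 against 5.56 and 6.12 (5.07 ± 0.76, adjusted p = 0.0107). Tumor 2 was the brightest for both, as it was for C1qa (3.67 ± 0.67), for the mannose receptor Mrc1 (3.74 ± 0.89) and for Ms4a6d (4.95 ± 0.75), a membrane protein of macrophages. The calls of Csf1r and Mrc1 ended without tumor 1, that of Mrc1 also with quantile normalization and the median shift. With the mean of probe sets Csf1r differed by 2.56 and did not pass. The list's count was 2 without tumor 1 and 8 without tumor 7, the latter beside 619 higher of all 10916 genes.

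Several of the largest rises belonged to neither list. Moxd1, a copper monooxygenase-like enzyme, stood at 13.13, 13.25 and 10.44 against 7.04 and 5.18 (6.16 ± 0.91, adjusted p = 0.00997). Hmga2, a chromatin protein of embryonic tissue, was at 10.33, 9.62 and 12.32 against 6.36 and 5.40 (4.87 ± 0.76, adjusted p = 0.013), brightest in tumor 7, where Krt8 was too. Tbx15, a T-box transcription factor, was at 10.11, 10.75 and 10.99 against 5.04 and 6.46 (4.87 ± 0.53). Serpinb2, an inhibitor of plasminogen activators, was at 12.58, 12.02 and 8.01 against 5.996 and 5.47, so that tumor 7 was much the lowest of the tumors; its call ended without tumor 1, without tumor 2 and with quantile normalization. Gas7 rose by 4.99 ± 0.40, with 4 of 5 probe sets in that direction. Wif1, a secreted inhibitor of Wnt ligands, was at 11.40, 12.27 and 9.22 against 5.82 and 6.02 (5.05 ± 0.80), and its call ended without tumor 1. In normal cells of the basal gate (CD29H CD24P), Moxd1 stood at 13.34 to 13.50, above every tumor array here. Wif1 (11.98 to 11.99) and Serpinb2 (10.44 to 10.57) lay there within the range of the tumors. Hmga2 (5.27 to 6.49), Tbx15 (5.10 to 5.29) and Gas7 (7.11 to 7.35) lay below every tumor.

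**Figure D3:**
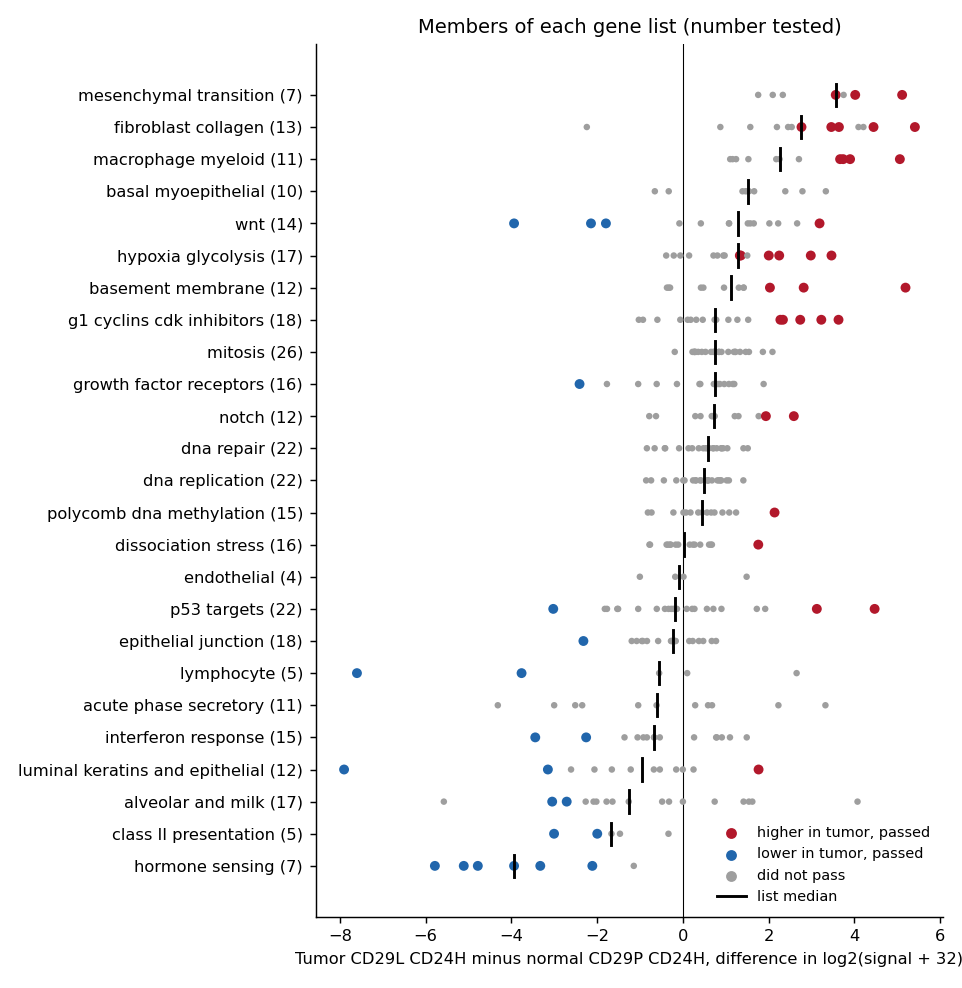
Difference between tumor CD29L CD24H and normal CD29P CD24H cells in log2(signal + 32), x axis, for each tested member of the gene lists with at least 4 tested members, ordered by the list median (black bar). Points are genes, coloured where they passed over all 10916 genes. Of 7 hormone-sensing genes 6 passed as lower, while the mesenchymal, fibroblast and macrophage lists have medians of 3.57, 2.77 and 2.26. The filter on dim genes left out 5 of 12 mesenchymal and 3 of 14 macrophage genes on the array. It uses the mean of the 5 arrays, so a gene dim in 1 group stays only if bright in the other.

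Genes of the response to low oxygen rose in part. HIF, the factor that drives this response, binds DNA sites with the core ACGTG or GCGTG. Its targets include glycolytic enzymes and matrix-modifying enzymes. Of 17 genes of hypoxia and glycolysis 6 rose and 0 fell, beside 2.75% of all genes in each direction, with a median of 1.30. Adm, the vasodilator peptide adrenomedullin, stood at 11.99, 13.50 and 13.35 in tumors 1, 2 and 7 against 9.28 and 9.67 (3.47 ± 0.52, adjusted p = 0.0107). Ankrd37 was at 8.84, 8.54 and 8.29 against 5.49 and 5.65 (2.99 ± 0.40, adjusted p = 0.00844). P4ha1, a catalytic subunit of the enzyme that hydroxylates collagen, was at 9.49, 9.27 and 10.12 against 6.82 and 7.94 (2.25 ± 0.49, adjusted p = 0.0389). All 3 tumors lay above both normal arrays for these genes; Adm was lower in tumor 1 than in the other two.

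The 250 bases before the start site of these 3 genes are printed because they rose together and carry different numbers of ACGTG, 1 form of the HIF core. The form GCGTG was not searched. It or its reverse complement CACGC stands in each of the 3 stretches, unmarked. Sequences are from RefSeq on GRCm38.p6, 5′ to 3′ on the gene's strand, with matches to ACGTG or its reverse complement CACGT in capitals. Adm lies at chr7:110627407-110627656 on the plus strand and holds 0 matches, Ankrd37 at chr8:45999851-46000100 on the minus strand with 2, and P4ha1 at chr10:59323046-59323295 on the plus strand with 1.
Adm: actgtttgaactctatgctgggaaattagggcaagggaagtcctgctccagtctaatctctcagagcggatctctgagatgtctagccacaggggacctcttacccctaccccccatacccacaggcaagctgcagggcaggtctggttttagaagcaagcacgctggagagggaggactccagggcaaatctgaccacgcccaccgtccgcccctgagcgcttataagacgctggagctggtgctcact
Ankrd37: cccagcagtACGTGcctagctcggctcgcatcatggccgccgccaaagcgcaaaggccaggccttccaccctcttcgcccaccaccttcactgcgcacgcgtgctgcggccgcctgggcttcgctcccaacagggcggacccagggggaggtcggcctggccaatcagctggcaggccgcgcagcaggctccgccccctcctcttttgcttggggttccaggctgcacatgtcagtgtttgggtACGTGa
P4ha1: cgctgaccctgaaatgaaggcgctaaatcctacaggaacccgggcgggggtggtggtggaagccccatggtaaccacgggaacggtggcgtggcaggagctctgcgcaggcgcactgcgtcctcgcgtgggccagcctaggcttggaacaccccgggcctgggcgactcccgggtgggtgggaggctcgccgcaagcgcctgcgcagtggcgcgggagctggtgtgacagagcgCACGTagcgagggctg
The Ankrd37 matches start 241 and 6 bases before the start site and the P4ha1 match 16 bases before it. Over the list, 9 of the 16 genes with a promoter in the table held a match (56.2%), among them Hk2, beside 16.6% of all 27025 promoters of that length. The list was made of genes of the response to low oxygen, so this excess describes the list and not these arrays. Of its 5 genes that rose and have a promoter there, 3 held a match. The search was chosen after the values were seen; a match is a description of letters, and CACGTG, which matches on both strands, makes a promoter count once in these shares.

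Glycolytic enzymes and other members followed in part. Hexokinase 2, Hk2, was at 11.60, 12.10 and 11.29 against 9.57 and 9.74 (2.01 ± 0.41, adjusted p = 0.0313). The triose phosphate isomerase Tpi1 rose by 1.35 ± 0.31 (adjusted p = 0.0442) and the stress gene Ndrg1 by 1.33 ± 0.31 (adjusted p = 0.0482), and both calls ended with the median shift. The glucose transporter Slc2a1 differed by −0.06 ± 0.36 and lactate dehydrogenase A, Ldha, by −0.21 ± 0.41; Pgk1, phosphoglycerate kinase, was above both normal arrays in every tumor (0.98 ± 0.34) without passing. The calls of P4ha1, Hk2, Tpi1 and Ndrg1 ended without tumor 1 and those of the last 3 also without tumor 2, which left 2 and 3 members of the list. With the mean of probe sets P4ha1, Tpi1 and Ndrg1 did not pass, which left 3. Of 16 genes of dissociation stress 1 passed, a share near the 5.5% of all genes: the immediate early receptor Nr4a1 (1.76 ± 0.38, adjusted p = 0.0379), a call that ended without tumor 2 and with the median shift.

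No gene of the cell division lists passed. Of 26 mitosis genes 0 passed (7 at an unadjusted p under 0.05), although 25 had positive differences with a median of 0.75, beside 0.05 over all genes, and 11 had every tumor array above both normal ones, beside 23.2% of all genes. Cdc20, an activator of the anaphase complex, was at 13.03, 14.53 and 12.88 against 11.72 and 11.05 (2.09 ± 0.54, adjusted p = 0.065), Nek2 differed by 1.34 ± 0.39 and the checkpoint kinase Bub1b by 1.87 ± 0.56. The proliferation marker Mki67 overlapped between the groups, at 12.14, 13.06 and 10.81 against 12.71 and 11.68. Of 22 replication genes 0 passed (2 at an unadjusted p under 0.05; median 0.50), with Mcm2, a helicase subunit, at 1.08 ± 0.37, and of 22 repair genes 0 passed (3 at an unadjusted p under 0.05; median 0.59). The CCAAT box stood in 18 of 22 mitosis promoters (81.8%) and 13 of 19 replication promoters, beside 34.5% of all promoters, and TTTGAA or TTTAAA in 12 of 22 and 5 of 19, beside 25.5%, on either strand. These shares describe the lists and not these arrays.

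Among regulators of the G1 phase 5 of 18 passed, all higher, beside 2.75% of all genes, with a median of 0.76. Ccnd2, cyclin D2, stood at 11.12, 12.22 and 9.45 against 7.12 and 7.48 (3.63 ± 0.73, adjusted p = 0.0304). Its kinase partner Cdk6 was at 13.08, 13.44 and 11.80 against 10.14 and 9.93 (2.74 ± 0.52, adjusted p = 0.0252). Inhibitors of the same step rose as well, Cdkn2b at 12.55, 12.29 and 11.98 against 9.87 and 10.12 (2.28 ± 0.38, adjusted p = 0.0164) and Cdkn1c by 2.34 ± 0.47 (adjusted p = 0.0295). Activators and inhibitors of this step were thus higher on the same arrays. Mycn rose by 3.23 ± 0.59, with 2 of 3 probe sets in that direction, while Myc lay between 11.01 and 11.52 in the tumors against 10.96 and 11.01 and Ccnd1 differed by 1.53 ± 0.57, neither passing. Without tumor 1 the calls of Cdk6, Ccnd2 and Cdkn1c ended, Mycn fell below the filter, and 1 member of the list passed. With the mean of probe sets Ccnd2 differed by 2.18, Cdk6 by 1.64 and Mycn by 1.14, none of them passed, and 2 members were left. Uhrf1, which guides maintenance methylation of DNA, was the 1 of 15 polycomb and DNA methylation genes that passed (2.14 ± 0.50, adjusted p = 0.0482); its call ended without tumor 1, without tumor 2 and under both other scalings, and Ezh2 differed by 0.66 ± 0.56.

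Targets of p53 moved in both directions, with 3 of 22 passing beside 5.5% of all genes. Ddit4, a stress-induced inhibitor of mTOR signalling that hypoxia also induces, stood at 14.22, 13.44 and 13.88 in the tumors against 9.68 and 9.06 (4.48 ± 0.41, adjusted p = 0.00227), 22.3-fold. Pmaip1, the cell death gene Noxa, was at 11.48, 9.38 and 11.42 against 7.82 and 7.44 (3.13 ± 0.66, adjusted p = 0.0348), a call that ended without tumor 1. Trp53inp1 fell to 11.61, 11.58 and 12.02 from 14.81 and 14.71 (−3.02 ± 0.33, adjusted p = 0.00473). The tumors agreed closely with each other for Ddit4 and Trp53inp1. The classic targets Cdkn1a, at 14.40, 13.14 and 12.23 against 14.00 and 13.35, and Mdm2, at 11.57, 11.69 and 11.12 against 11.06 and 11.31, overlapped between the groups, and Ccng1 differed by −1.82 ± 0.53 (adjusted p = 0.0856). Without any 1 of the tumors, 2 members of the list passed as lower. The p53 gene itself was not analysed here.

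Of 14 Wnt genes 4 passed, of 12 Notch genes 2 and of 16 growth factor and receptor genes 1, beside 5.5% of all genes. In the Wnt list 3 ligands fell, Wnt4, Wnt5a (−2.14 ± 0.47, adjusted p = 0.0397) and Wnt5b (−1.79 ± 0.41, adjusted p = 0.0431), and 1 receptor rose. That receptor, Fzd7, stood at 12.23, 11.87 and 11.37 against 8.53 and 8.74 (3.19 ± 0.42, adjusted p = 0.0078). Axin2, a feedback target of Wnt signalling, was at 11.57, 9.58 and 7.75 against 7.08 and 6.85, with a wide spread among the tumors, and did not pass. In the Notch list the receptor Notch2 (1.94 ± 0.39, adjusted p = 0.0295) and the ligand Dll1, at 9.81, 10.29 and 8.94 against 7.05 and 7.14 (2.59 ± 0.48, adjusted p = 0.0233), rose; 1 of the 2 Notch2 probe sets went that way, and Jag1 differed by 1.21 ± 0.55. In normal cells of the basal gate (CD29H CD24P), Fzd7 stood at 11.58 to 11.93, within the range of these tumors. Dll1 was brighter there (12.31 to 12.60) than in any of these tumors, and Notch2 dimmer (10.35 to 10.64) than in all of them. Among growth factors betacellulin, Btc, fell (−2.41 ± 0.50, adjusted p = 0.0333). The receptor Met was at 15.81 in tumor 7 and at 12.20 and 11.91 in tumors 1 and 2 against 13.18 and 12.62, and Erbb3 overlapped on all arrays. The calls of Wnt5a, Wnt5b, Notch2, Dll1 and Btc ended without tumor 1 and that of Wnt5b also without tumor 2, and that of Wnt5a ended with quantile normalization. Without tumor 7, 5 Wnt genes passed as higher, beside 619 of all 10916 genes in that fit. Without tumor 2, 2 did, and with the mean of probe sets 4 did.

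Of 18 junction genes tested 1 passed, a share near the 5.5% of all genes, with a median of −0.24. In every tumor 4 members lay below both normal arrays, a share near the 21.1% of all genes. The gene that passed was the tight junction claudin Cldn1, at 10.64, 8.998 and 9.84 against 12.25 and 12.04 (−2.32 ± 0.52, adjusted p = 0.0415). Of its 4 probe sets this was the 1 that was lower, and the call ended without tumor 2. Without tumor 7, 2 junction genes passed as lower, beside 522 of all 10916 genes in that fit. E-cadherin, Cdh1, was at 12.90, 12.58 and 13.79 against 14.29 and 14.04, below the normal cells in each tumor by an amount that did not pass (−1.08 ± 0.41, adjusted p = 0.163), and Cldn7 overlapped.

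Basal genes varied widely among the tumors. Of 15 on the array 10 were tested and 0 passed (5 at an unadjusted p under 0.05), with a median of 1.53; for 3, Krt14, Mylk and Cdh3, all tumors lay above both normal arrays, beside 23.2% of all genes. Krt14 stood at 12.19 and 12.28 in tumors 1 and 2 and at 8.72 in tumor 7, against 8.07 and 7.38 in the normal cells (3.34 ± 0.99, adjusted p = 0.0918). Krt5 was at 11.27, 10.30 and 6.56 against 6.44 and 6.72, and Trp63, the p63 factor of basal cells, at 11.44, 11.57 and 7.79 against 7.62 and 8.13. For both, tumor 7 lay within or beside the range of the normal luminal cells and tumors 1 and 2 well above it. Smooth muscle actin, Acta2, followed the same order (13.46, 13.16 and 9.70 against 10.47 and 10.66), as did Krt17 (9.83, 9.87 and 7.16 against 7.35 and 7.77) and the transcription factor Snai2 (12.95, 13.07 and 7.03 against 7.63 and 6.90). Other members were highest in tumor 7 among the tumors: Sgce had signals of 31.9, 218 and 1611 units, the integrin chain Itga6 3043, 5844 and 8960 and P-cadherin, Cdh3, 195, 70.3 and 329 in tumors 1, 2 and 7. The basal list therefore did not order the tumors in a single way. Mylk, the kinase of myosin light chains, differed by 1.46 ± 0.61. Krt15, a basal keratin outside the list, passed, at 11.22, 8.90 and 8.94 against 5.54 and 7.01 (3.41 ± 0.77, adjusted p = 0.0439), a call that ended without tumor 1, without tumor 2 and with quantile normalization.

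The 10 genes with the widest range among the tumors, chosen for that range, are given as a description. In 8 of the 10 tumor 7 was the highest. Iapp, the islet peptide amylin, stood at 14.15 in tumor 7 and at 5.17 and 6.17 in tumors 1 and 2, against 5.79 and 5.62 in the normal cells. Csn1s2a was at 13.32 in tumor 7 and at 5.16 and 5.42 in the others, and Csn1s1 at 13.76 against 8.76 and 6.92. Tesc, a calcium-binding protein, was at 13.48 against 5.43 and 5.60, with 11.38 and 11.64 in the normal cells, and Clca3a2 at 13.45 against 6.08 and 6.82, with 14.84 and 14.52. Tumor 7 therefore shared high Csn3, Tesc and Clca3a2 with normal luminal cells and carried Iapp and Csn1s2a on its own. Chil1 was at 9.46, 5.79 and 12.83 against 10.48 and 11.42. Prr9 was high in tumor 1 alone (12.52, against 6.62 and 5.17) and Kbtbd11 in tumor 2 alone (13.50, against 8.93 and 6.34). None of the 10 passed.

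**Figure D4:**
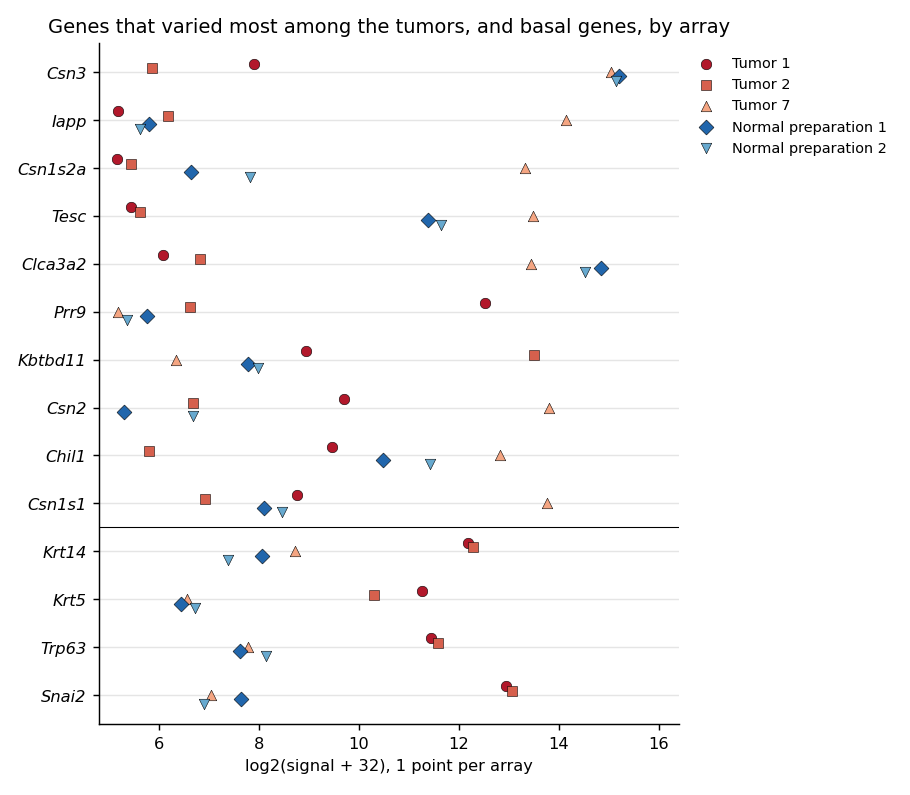
Level on each of the 5 arrays as log2(signal + 32), 1 point per array, of the 10 genes with the widest range among the tumor arrays (top) and of 4 basal genes (bottom). Tumor 7 stands apart from tumors 1 and 2 for 8 of the upper genes and for the 4 basal genes, where it lies with or near the normal luminal cells.

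To see which differences were particular to this gate, the same contrast was set beside that in the CD29 high gate, tumor CD29H CD24H (3 arrays, the tumor-initiating fraction of the study) against normal CD29H CD24P (2 arrays, the basal gate). Within each tumor or preparation the CD29 high array was subtracted from the CD24 high array, and these 3 and 2 differences were compared; the test shares the 5 arrays above. Of 10916 genes 1512 passed (13.9%), 841 higher (7.7%) and 671 lower (6.15%) in this gate relative to the other. The median absolute difference between gates was 0.27 over the mean of the 3 tumors and 0.48 over the mean of the 2 preparations, values that were not tested against each other. Of 14 basal genes 11 passed as higher and of 13 basement membrane genes 11, of 12 luminal genes 6 as lower and of 6 hormone-sensing genes 4. The count was 665 without preparation 1, 817 without preparation 2 and 250 without the block by tumor and preparation.

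Foxa1 gave a change of sign between the gates. Tumor minus normal was −2.11 in the CD24 high gate and 3.74 in the CD29 high gate, a difference of −5.86 ± 0.41. In the tumors the mean level was 11.73 and 12.03 in the 2 gates, and in normal cells 13.84 and 8.28, so the tumor level lay between the normal ones. By the means, the same arrangement held for Tesc (−3.34 and 2.61), Smim38 (−5.14 and 0.91), Rasef (−5.22 and 0.66) and Aldh1a3 (−2.71 and 1.77). For Tesc and Rasef single tumors did not lie between. In the CD24 high gate, tumors 1, 2 and 7 stood at 5.43, 5.60 and 13.48 for Tesc. The normal arrays were at 11.38 and 11.64 there and at 5.19 to 5.44 in the CD29 high gate. For Rasef, tumors 1 and 2 (5.12 and 5.13) lay below the normal CD29 high arrays (5.80 to 6.42), and tumor 7 was at 8.89. Elf5 (−0.48 and 4.00) and Ehf (1.77 and 6.66) also differed, by −4.49 ± 0.45 and −4.90 ± 0.42. Krt19, Esr1, Pgr and Upk3a were negative in both gates and more so here: −7.90 and −4.07, −5.79 and −1.33, −4.78 and −0.83, and −7.40 and −1.502. Their tumor means were close in the 2 gates: 7.03 and 7.16, 7.65 and 7.58, 9.05 and 9.43, and 6.50 and 6.24. The normal means were further apart: 14.93 and 11.23, 13.44 and 8.91, 13.84 and 10.26, and 13.90 and 7.74. The larger differences here thus go with brighter normal CD24 high cells, not with a lower level in this tumor fraction. Trp53inp1 gave −3.02 and 0.69.

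In the other direction Sparc had the largest difference, 8.48 ± 0.66, with tumor minus normal of 5.12 in the CD24 high gate and −3.36 in the CD29 high gate. Serpinb11 (2.44 and −5.40), Myl9, a myosin light chain (1.74 and −5.99), Krt15 (3.41 and −4.15), Krt14 (3.34 and −3.39), Krt5 (2.79 and −3.97), Col4a2 (5.20 and −1.59) and Ccnd2 (3.63 and −1.43) likewise changed sign. Tenm2 was near level here (−0.75) and far lower in the other gate (−8.37). Myl9 and Tenm2 were below the filter on dim genes in the 5 arrays. For these basal and matrix genes the normal CD29 high cells were bright, with means of 14.17 for Krt14, 13.96 for Col4a2 and 14.15 for Sparc, and the normal CD24 high cells were dim.

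For 6 other genes, named after their values were seen, the difference between gates did not pass. Gata3 gave −3.33 and −3.74, Col1a1 5.42 and 4.82, Hmga2 4.87 and 5.39, Ddit4 4.48 and 4.32, Adm 3.47 and 2.48 and Csf1r 3.90 and 2.64. The difference between gates was smallest for Ddit4 (0.16 ± 0.42) and Gata3 (0.41 ± 0.46), followed by Hmga2 (−0.52 ± 0.55), Col1a1 (0.60 ± 0.69) and Adm (0.99 ± 0.62). It was largest for Csf1r (1.27 ± 0.51, adjusted p = 0.126 in limma, unadjusted 0.0267). Not passing does not show that the gates act alike.

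**Figure D5:**
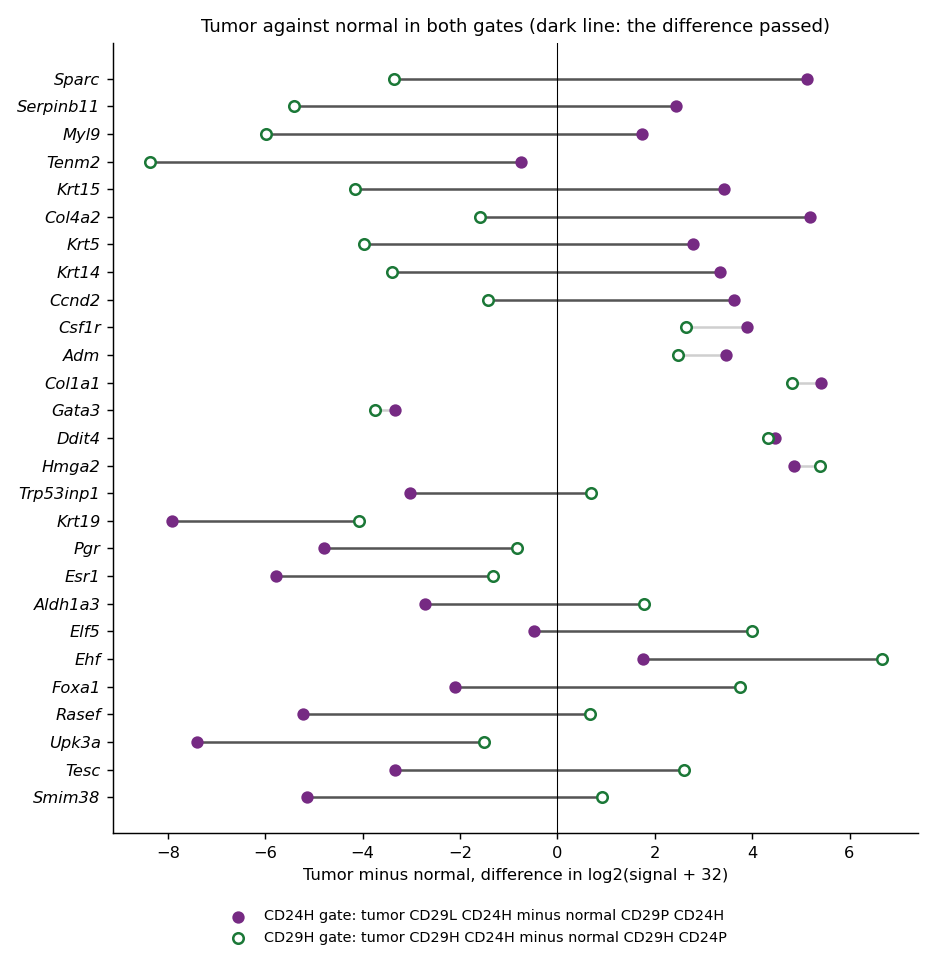
Tumor minus normal difference in log2(signal + 32), x axis, in the CD24 high gate (filled) and in the CD29 high gate (open) for the named genes, ordered by the difference between them. A dark line marks genes whose difference between the gates passed; Sparc, Krt14 and Krt5 are positive in the CD24 high gate and negative in the other, and Foxa1 and Tesc the reverse.

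For 80 of the genes named above a call was made in the comparison of 5 arrays. Of these 45 have over 1 probe set; for 39 every probe set had the sign of the one used, and the other 6 are Cldn1, Esr1, Ighm, Gas7, Mycn and Notch2. With the mean of a gene's probe sets in place of the brightest, 18 of the 80 calls ended: Krt7, Cldn1 (−0.19), Serpinb2, Col5a1, Fstl1, Csf1r, Mrc1, P4ha1, Tpi1, Ndrg1, Cdk6, Ccnd2, Mycn, Uhrf1 (1.18), Notch2 (0.89), Btc, H2-Aa and Krt15. With the larger offset tried the calls of Serpinb2, Col5a1, Mrc1, C1qa, Ndrg1, Uhrf1 and Krt15 ended, with an offset of 1 those of Rasef, Ndrg1 and Uhrf1, and with no intensity trend those of Mrc1, Tpi1 and Ndrg1.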

How the data were processed

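The deposited values are linear signal intensities of probe sets. Per the submitters' processing notes, the authors used GCOS, for which no version is named. Per the labels' protocols, RNA was amplified in 2 cycles before labelling. As measured from the deposited intensities, the mean after trimming 2% at each end is the same on all 18 arrays, so no further normalization was applied. A reference RNA served for normalization per the series' design text, in a way the sources used here do not describe. Detection calls were not used.

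The table has 45101 probe sets, 64 of them controls. The platform annotation names 1 gene for 34945 probe sets, several for 932 and none for 9160; the latter kinds were not used. For each of 18193 genes (9010 with over 1 probe set) the brightest probe set on average was used, as log2(value + 32). Leaving out the dimmest 40% of genes by mean left 10916. The mean is over all arrays of a fit, so a gene dim in 1 group stays only if bright in another. The signs and medians of lists with members left out can follow in part from this. Differences on this scale understate the change of dim genes. The tool was limma 3.58.1 (R 4.3.3), with an intensity trend in its moderated test, unpaired, with Benjamini-Hochberg adjustment over all genes and a threshold of 0.05; errors are limma's SE. Each array counted as 1 sample, and no 2 arrays were duplicates. The difference between the gates was fitted on differences within a tumor or preparation. The number of arrays limits the precision. No file or label gives a batch or date. The procedure was tested on simulated data.

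The 28 gene lists (440 entries, 411 on the array) and the genes compared were chosen with earlier results of these data known. The naming rule took both sort markers and Krt8, the 15 largest changes per direction that passed without overlap, up to 4 genes per list, the 10 widest ranges among the tumors, the 5 largest differences between the gates per direction, and each called member of a list with 5 or fewer calls. Genes named outside it, such as Krt14, Mki67, Myc, Ldha, Slc2a1, Ptprc and 6 genes set side by side in both gates, were chosen after their values were seen. Promoters came from RefSeq (GRCm38.p6, 250 bases before the start). Alternatives were other offsets, scalings, filters and probe set rules, no trend, blocks, wider fits, the actin 3′/5′ ratio as a covariate, and each array or tumor left out. Figures were drawn with matplotlib 3.10.9.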

Additional observations from a re-analysis of the deposited data

Results flagged for a closer look

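The tumor against normal difference was tested for a difference between the 2 gates, and 1512 genes passed in limma. Among the genes named, the difference (CD24 high gate minus CD29 high gate, log2) was negative for Smim38 (−6.05), Tesc (−5.95), Upk3a (−5.90), Rasef (−5.89), Foxa1 (−5.86), Ehf (−4.90), Elf5 (−4.49), Aldh1a3 (−4.48), Esr1 (−4.46), Pgr (−3.95), Krt19 (−3.84) and Trp53inp1 (−3.71). It was positive for Sparc (8.48), Serpinb11 (7.85), Myl9 (7.72), Tenm2 (7.62), Krt15 (7.57), Col4a2 (6.79), Krt5 (6.76), Krt14 (6.73) and Ccnd2 (5.06). Each had an adjusted p below the threshold with the tumors or preparations as blocks. Groups of 2 and 3 arrays were too small for a search for single outlying arrays.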

How the results depend on the processing

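The normal group has 2 arrays, and no depth or detection value is used, so that genes near background are limited by it in both groups. Of 138 genes named, 80 passed, and under the offsets, scalings, filters, probe set rule and trend settings run here none of these 80 changed sign. The replicate numbers 1 and 2 are shared by tumors and preparations but pair them by no label; deviations of the same-numbered arrays correlated at 0.145 and 0.0726. With that number as a replicate block 1511 genes passed (835 higher, 676 lower), including all 600, and Csn1s2a reversed to −1.93 (from 0.74, which had not passed). Tumor 7 shares its number with no preparation and drops out of that contrast: for all 138 genes named the value equals the mean of tumors 1 and 2 less the normal mean (largest gap 4.99e-08), so the count mixes the block with the loss of tumor 7. Without the filter on dim genes 318 passed (144 higher, 174 lower), with 18193 genes tested, and 29 of the 80 calls ended. With all 17 sorted-cell arrays in 1 fit 957 passed (526 higher, 431 lower), and with the source as a random block 1120 (631 higher, 489 lower). With the actin ratio as covariate 0 passed (0 higher, 0 lower), in a fit that can hardly part the ratio from the group. The median shift gave 739 (230 higher, 509 lower) and quantile normalization 492. Leaving out 1 array gave 0 to 1141 genes (0 to 619 higher, 0 to 522 lower), the lowest without preparation 1 and the highest without tumor 7.

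The difference between the gates passed for 665 to 1679 genes with 1 tumor or preparation left out (391 to 927 higher, 274 to 752 lower), the lowest without preparation 1 and the highest without tumor 2. It passed for 1046 with a 60% filter (538 higher) and, with no replicate block, for 250 (159 higher, 91 lower); 45.0% of the genes that passed were higher with the median shift and 55.6% without it. Of 27 genes named there, 21 passed, and 8 of these did not with no replicate block; none changed sign.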
